A study of Mus musculus with 36 samples.

Results

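Glycam1 and 7 genes whose products carry or build the same adhesion ligand, namely Cd34, Gcnt1, St3gal6, St3gal4, Fut7, Chst4 and Chst2, were followed in mouse mesenteric lymph nodes. These are 8 of the 18193 genes that the platform annotation names alone on a probe set, and all of their probe sets were taken, 15 of 45137 (9 on array A and 6 on array B). Arrays A and B are a pair of Affymetrix arrays that differ in their probe sets, and each deposited value is a linear intensity. The day 0 group had received phosphate-buffered saline (PBS). In the other 5 groups the mice had been given soluble lymphotoxin-beta receptor, a decoy that takes up the ligands of that receptor, over 1, 2, 3, 27 or 35 days. With 3 samples per group and array, the 6 groups comprise 36 samples. The labels used here state no strain, age, dose or dosing schedule. No group was labelled as given PBS for longer or as given a control protein, so effects of the decoy, of time and of injected protein as such cannot be told apart. The labels do not say whether samples of a group are separate mice, so p-values measure only the spread between these samples. One day 1 sample on array B has a source label with unrelated words and was placed by its title.

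High endothelial venules are the postcapillary vessels through which naive lymphocytes enter a lymph node. Lymphocytes roll on them by L-selectin, which binds sulfated, sialylated and fucosylated O-glycans displayed on mucin-type proteins such as GlyCAM-1, the product of Glycam1, and CD34. Steady signalling through the lymphotoxin-beta receptor is known to maintain the venules' specialised state, in part through NF-kB transcription factors.

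Glycam1 fell from day 2 on, and no other tested member passed the test in a comparison with PBS. Probe sets were tested with limma, with p-values adjusted by the Benjamini-Hochberg method over all probe sets tested on an array, and were called at an adjusted p under 0.05. Of the 15 probe sets, 9 were bright enough to test (5 on array A, 4 on array B), and they stand for 6 of the 8 genes. Cd34 and Chst4 had no tested probe set. The number called was 0 at day 1, and 1 at each of days 2, 3, 27 and 35, in each case Glycam1. The shares of all tested probe sets called on array A were 0.0164% at day 1, 0.114% at day 2, 0.556% at day 3, 3.18% at day 27 and 7.36% at day 35. On array B the shares called were 0.00799%, 0.024%, 0.0799%, 0.328% and 3.59% on the same days. The median change over the 9 tested members lay between -0.11 and -0.04 (log2) in the 5 comparisons with PBS, while the medians over all probe sets tested lay within 0.05 of 0 on either array. At an unadjusted p under 0.05, 1, 2, 4, 3 and 2 of the 9 passed on days 1, 2, 3, 27 and 35. These counts include Glycam1 on every day and mix directions: at day 3 Gcnt1 and Fut7 were lower and St3gal4 higher. The share of all probe sets under that threshold was not counted, so the counts are no result about the members.

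The bases before the start of transcription are shown for Glycam1 and for Madcam1 and Ubd, the other venule genes of array A that fell on the same days. Sequences are from RefSeq on GRCm38.p6, 250 bases upstream of the start on the gene's own strand, and capitals mark matches on either strand to the NF-kB consensus. All 8 members matched a RefSeq gene by Entrez identifier and had such a window. The Glycam1 window is chr15:103565082-103565331 on the minus strand, the Madcam1 window chr10:79664309-79664558 on the plus strand and the Ubd window chr17:37193642-37193891 on the plus strand.
Glycam1: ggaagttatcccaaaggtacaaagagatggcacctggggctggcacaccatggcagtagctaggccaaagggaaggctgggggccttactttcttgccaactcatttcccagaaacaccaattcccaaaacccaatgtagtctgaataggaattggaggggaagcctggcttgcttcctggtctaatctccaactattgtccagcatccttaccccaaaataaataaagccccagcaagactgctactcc
Madcam1: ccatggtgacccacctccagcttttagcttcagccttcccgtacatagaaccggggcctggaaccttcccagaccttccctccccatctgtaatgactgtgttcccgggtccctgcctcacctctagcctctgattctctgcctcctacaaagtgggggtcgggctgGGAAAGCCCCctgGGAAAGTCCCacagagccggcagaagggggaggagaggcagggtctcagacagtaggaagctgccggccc
Ubd: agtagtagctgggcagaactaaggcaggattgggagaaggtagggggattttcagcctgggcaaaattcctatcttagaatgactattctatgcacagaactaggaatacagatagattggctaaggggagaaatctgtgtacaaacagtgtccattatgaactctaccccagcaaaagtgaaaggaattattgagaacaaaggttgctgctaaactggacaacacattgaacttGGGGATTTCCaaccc
The Madcam1 window held 2 matches, at 83 to 74 and at 70 to 61 bases before the start, and the Ubd window held 1, at 15 to 6 bases before it. The Glycam1 window held none, and among the other members 1 window of St3gal6 held 1. The windows of Cxcl13 and Mfge8, whose changes were among those most like Glycam1's (below), were also scanned and held none. Of 32851 windows of 250 bases, 1281 (3.9%) held at least 1 match. A match describes these letters and is not a measured binding site, and so few windows give no test of the motif.

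Glycam1 encodes the secreted mucin that venules of the node present to L-selectin, and its single probe set (1424825_a_at, array A) was well above the floor on all 18 arrays. The PBS samples read 5239, 6627 and 5555. After 1 day the samples read 4820, 4354 and 4682. All 3 lay below every PBS sample, but the gap between the groups was smaller than the range within PBS. After 2 days they read 2759, 2740 and 2565, and after 3 days 1640, 2244 and 1980. Readings of 2132, 2038 and 2530 followed at day 27, and of 2974, 3865 and 3650 at day 35. All 15 treated samples were below all 3 PBS samples, as were those of 0.253% of the probe sets tested on array A.

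**Figure D1:**
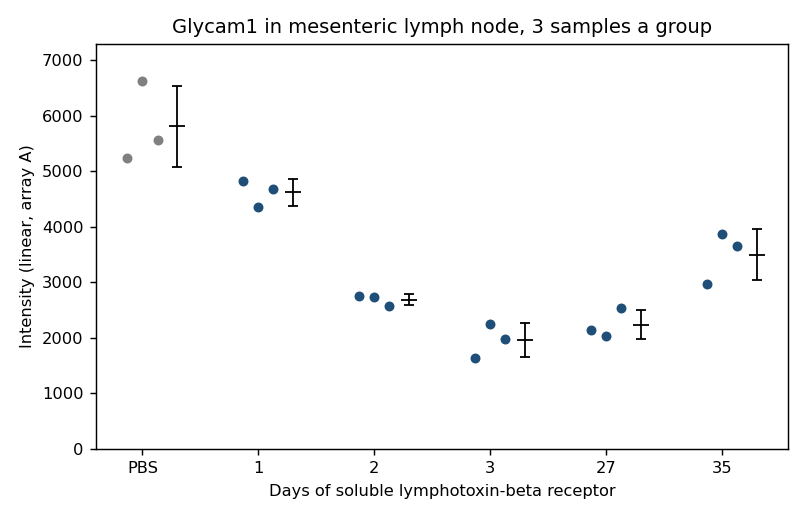
Linear intensity of the Glycam1 probe set (array A, y axis) in each sample by days of soluble receptor (x axis, not to scale), with PBS in grey, treated samples in blue, and the mean and SD of the 3 samples beside them. Treated samples ran from 1640 to 4820 and all lay below the lowest PBS sample at 5239, with the lowest groups at days 3 and 27.

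The group means were 5807 ± 727 (SD, n = 3) with PBS, 4619 ± 239 at day 1, 2688 ± 107 at day 2, 1954 ± 303 at day 3, 2233 ± 261 at day 27 and 3496 ± 465 at day 35. As shares of the PBS mean these were 79.5%, 46.3%, 33.7%, 38.5% and 60.2%. Ordered by level, PBS was followed by day 1, day 35, day 2, day 27 and day 3. Days 27 and 3 overlapped, and the lowest day 2 sample (2565) was just above the highest day 27 sample (2530), so those neighbours were not separated beyond their spread. In whole nodes, fewer cells that make a transcript and less of it per cell cannot be told apart.

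The fitted change of Glycam1 from PBS was -0.32 (log2, SE 0.12, adjusted p = 0.998) at day 1, where the unadjusted p was 0.0122. It was -1.11 at day 2 (adjusted p = 0.000106), -1.58 at day 3 (6.93e-07) and -1.38 at day 27 (5.26e-06), with the same SE. At day 35 the change was -0.73 (SE 0.12, adjusted p = 0.0013). Among the 12231 probe sets tested on array A, this was the largest fall at days 3 and 27, the second largest at day 2, and number 47 and number 42 from the lowest at days 1 and 35. Over all 6 groups, Glycam1 had the second smallest F test p of array A (adjusted p = 8.2e-07), in a test that called 7.71% of the probe sets.

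Treated days were also compared with each other. Between day 1 and day 3 Glycam1 changed by -1.25 (log2, SE 0.12, adjusted p = 3.01e-05), the largest fall of the array in that contrast, in which 0.229% of the probe sets of array A and 0% of those of array B were called. Between days 27 and 35 it was higher at day 35 by 0.64 (95% interval 0.40 to 0.89, unadjusted p = 2.85e-05), which missed the threshold after adjustment (adjusted p = 0.0821) in a contrast that called 0% of either array. All 3 day 35 samples were above all 3 day 27 samples, and how many probe sets were so separated was not counted. That contrast passed the threshold with quantile scaling (0.66, adjusted p = 0.0402), with array weights (0.68, 0.00449) and without day 27 replicate 3 (0.74, 0.0334). These settings called 4, 464 and 6 probe sets of array A. The mean of days 27 and 35 differed from the mean of days 1, 2 and 3 by -0.05 (SE 0.075, 95% interval -0.21 to 0.10, adjusted p = 0.689), in a contrast that called 15.4% of array A and 1.66% of array B.

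Some measures of the arrays differed in the late groups, and whether they are technical or biological was not tested. The mean log2 intensity of 123 probe sets for small respiratory chain subunits was 10.178 to 10.204 in the PBS samples of array A, 9.883 to 10.057 at day 27 and 9.763 to 9.921 at day 35. One earlier sample, day 3 replicate 3, was as low, at 9.906, and the other 8 of days 1 to 3 lay at 10.17 to 10.25. The log2 ratio of the 3′ to the 5′ Actb control probe set on array A was -0.03 to 0.06 with PBS, -0.07 to 0.13 at days 1 to 3, 0.08 to 0.16 at day 27 and 0.15 to 0.19 at day 35. On array B this ratio was 0.05 to 0.08 with PBS, 0.18 to 0.25 at day 27 and 0.25 to 0.30 at day 35. With the subunit mean as a covariate, the Glycam1 change at day 35 was -0.94 and missed the threshold (adjusted p = 0.103). The subunit means at day 35 and with PBS did not overlap, so that fit cannot separate covariate and day well. The calls at days 2, 3 and 27 were kept with the covariate. The part of the Actb ratio in the results was not tested.

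Cd34, a sialomucin of vascular endothelium and of blood progenitors that serves as another protein carrier of the ligand, was read by a single dim probe set (1416072_at, array A). It exceeded the array's median on 2 of 18 arrays and was left out of the tests. PBS samples read 297, 270.3 and 233.5. Treated samples ran from 207.7 to 311.2, with group means of 249.8 at day 1, 259.1 at day 2, 253.2 at day 3, 250.6 at day 27 and 266.1 at day 35, against 266.9 ± 31.9 (SD, n = 3) with PBS. Every treated group overlapped the PBS group. In a fit without the brightness filter the 5 changes lay between -0.09 and -0.02 (log2, SE 0.13), and their 95% intervals reached from -0.38 to 0.27, with adjusted p from 0.894 to 1.

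**Figure D2:**
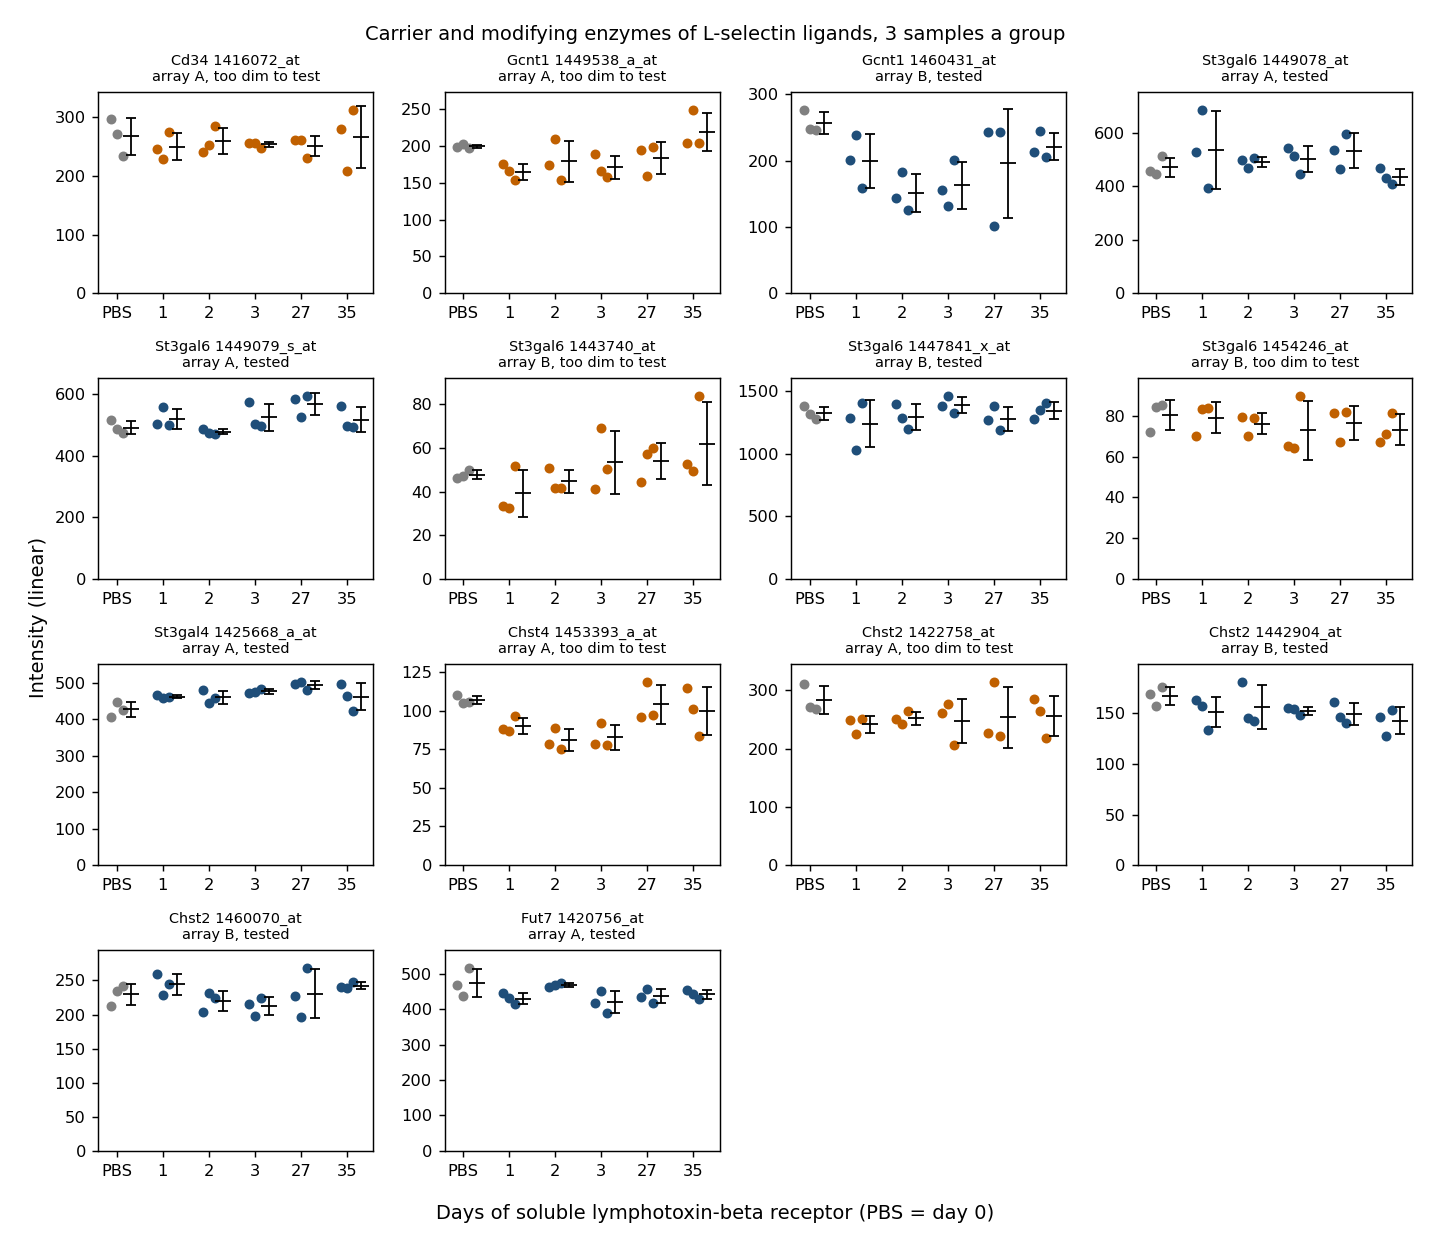
Linear intensity (y axes, each from 0) of the 14 probe sets of the other 7 genes in each sample by days of soluble receptor (x axes), with PBS in grey, tested probe sets in blue, those too dim to test in orange, and mean and SD beside the points. In 7 of the 14 panels every treated day overlaps PBS, in the other 7 at least 1 day does not, and Gcnt1 on array B lies below PBS in all 15 treated samples, with the highest treated sample at 244.1 and the lowest PBS sample at 245.6. The share of all probe sets with such a day was not counted, so the split of panels is no result about the members.

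Gcnt1 encodes the branching N-acetylglucosaminyltransferase that opens an arm of the O-glycan on which the L-selectin epitope can be built. Its array B probe set (1460431_at) read 275.6, 247.4 and 245.6 with PBS. It read 201, 238.7 and 158.2 at day 1, 144.2, 182.6 and 126 at day 2, and 156.4, 130.9 and 200.5 at day 3. The late samples read 242.7, 101.4 and 243.1 at day 27 and 212.6, 244.1 and 205.9 at day 35. All 15 treated samples were below all PBS samples, as were those of 0.951% of the probe sets tested on array B, but the highest treated sample (244.1) was just under the lowest PBS sample (245.6).

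The spread between replicates of this Gcnt1 probe set was wide, and no change passed. The log2 changes were -0.38, -0.78, -0.68, -0.50 and -0.22 at days 1, 2, 3, 27 and 35, with an SE of 0.25. The adjusted p-values were 0.758, 0.667, 0.512, 0.471 and 0.655. At day 2 the 95% interval was -1.30 to -0.25 (unadjusted p = 0.00603), and array weights gave -0.52 with an adjusted p of 0.0309. The weighted fit called 2298 of the 12516 probe sets of array B at day 2, against 3 without weights. With the subunit covariate, which on array B was the mean of 12 probe sets, the day 35 change was -0.64 (adjusted p = 0.0245). The subunit means of array B were 8.434 to 8.512 with PBS and 8.313 to 8.394 at day 35. They did not overlap, so that fit cannot separate covariate and day well. That fit called 3228 of the 12516 probe sets of array B at day 35, against 449 without the covariate. The day 27 mean rests on 1 low sample at 101.4 beside a pair near the PBS level. Without that sample (day 27 replicate 2), the late days exceeded the early days by 0.47 (adjusted p = 0.0489), against 0.26 (adjusted p = 0.517) with it.

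The second Gcnt1 probe set (1449538_a_at, array A) was below the array's median everywhere and was not tested. It read 197.5 to 201.8 with PBS, 153.2 to 175.4 at day 1, 154.1 to 208.7 at day 2, 157.8 to 188.2 at day 3, 159.2 to 197.9 at day 27 and 204 to 248 at day 35. Days 1 and 3 lay below PBS without overlap, and day 35 lay above it. How many probe sets of the array were separated in this way was not counted, so this is no result about Gcnt1. The changes in the fit without a filter were -0.28, -0.17, -0.23, -0.12 and 0.13 (log2, SE 0.12), with adjusted p from 0.691 to 1. The 2 probe sets were thus both lower than PBS on average at days 1 to 27, and had opposite signs at day 35.

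St3gal6 and St3gal4 encode sialyltransferases that cap galactose with sialic acid, a step needed before the epitope is fucosylated. St3gal6 had 5 probe sets, 3 of them tested. On array A 1449078_at read 445.7 to 512.1 with PBS and 392.3 to 684.3 in treated samples, and 1449079_s_at read 473.2 to 513.8 with PBS and 470.3 to 592.1 in treated samples. On array B 1447841_x_at read 1277 to 1376 with PBS and 1031 to 1457 in treated samples. The _s and _x endings mark probe sets that can match more than 1 transcript. Treated and PBS groups overlapped on every day for these 3, except that 1449079_s_at at day 27 (524.8 to 592.1) lay above PBS, with a change of 0.21 (log2, SE 0.077, adjusted p = 0.157). How many probe sets had such a day was not counted. The 15 changes of the 3 probe sets from PBS ran from -0.12 to 0.21, and none passed. The other pair of St3gal6 probe sets on array B was dim, at 32.6 to 83.59 and 64.07 to 89.54, with 17 and 8 of 18 arrays under the floor of 76.57, and gave no measured difference.

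St3gal4 (1425668_a_at, array A) read 406.6, 448.1 and 425.1 with PBS and 422.2 to 501.5 in treated samples, of which 13 of 15 lay above every PBS sample. Its group means were 426.6 ± 20.8 (SD, n = 3) with PBS, 461.2 ± 4.51 at day 1, 459.8 ± 18.3 at day 2, 476.1 ± 6.41 at day 3, 492.8 ± 11.4 at day 27 and 460.6 ± 37 at day 35. Days 1, 3 and 27 did not overlap PBS. How many probe sets of the array were separated from PBS to this extent was not counted. The changes were 0.11, 0.11, 0.16, 0.21 and 0.11 (log2, SE 0.065), and none passed, with the smallest adjusted p at day 27 (0.0893). St3gal4 and the St3gal6 probe set 1449079_s_at were called at day 27 when arrays were weighted. The weighted fit called 2485 of the 12231 probe sets of array A at day 27, against 389 without weights.

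Fut7 encodes the fucosyltransferase that completes the sialyl Lewis x structure, in leukocytes as well as in venules. Its probe set (1420756_at, array A) read 469.8, 438.4 and 516.8 with PBS and 389.7 to 474.2 in treated samples. Group means were 475 ± 39.5 (SD, n = 3) with PBS, 430.2 at day 1, 468.8 at day 2, 419.8 at day 3, 437.6 at day 27 and 442.3 at day 35. Every treated group overlapped PBS. The changes were -0.14, -0.02, -0.18, -0.12 and -0.10 (log2, SE 0.072). None passed, and the smallest adjusted p was 0.4.

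Chst4 and Chst2 encode sulfotransferases that add sulfate to N-acetylglucosamine, the modification that gives the venule ligand its high affinity for L-selectin, and Chst4 is the one most restricted to high endothelium. Its probe set (1453393_a_at, array A) was below the floor of 122.6 on all 18 arrays, so that no change could be fitted with the floor and its order is that of dim values. It read 105.2 to 110 with PBS, 86.66 to 96.41 at day 1, 75.32 to 88.85 at day 2, 77.66 to 91.88 at day 3, 96.31 to 118.7 at day 27 and 83.97 to 114.7 at day 35. Days 1, 2 and 3 lay below PBS without overlap, and days 27 and 35 overlapped it. The share of all probe sets with such days was not counted, so this separation is no result about Chst4. A fit without floor or filter on log2(intensity + 16), added after these values were seen, gave changes of -0.21, -0.35, -0.32, -0.04 and -0.09 (SE 0.097). None of these 5 passed (adjusted p = 0.412 at day 2 and 0.256 at day 3), while late exceeded early by 0.23 (adjusted p = 0.0275). How many probe sets that fit called late against early was not counted. With the floor kept and no filter, that contrast called 2050 of 22626 probe sets of array A. The late against early difference of Chst4 rests on values under the floor and is no result about it.

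Chst2 had 3 probe sets, and none of them passed. On array B 1442904_at read 157.9 to 175.9 with PBS and 127.8 to 181.1 in treated samples. Its differences from PBS were -0.15, -0.11, -0.13, -0.17 and -0.24 (log2, SE 0.11), with a smallest adjusted p of 0.232 at day 35. The samples of days 3 (148.2 to 155.6) and 35 (127.8 to 153.7) lay below PBS without overlap. How many probe sets of the array had such days was not counted. It was called at day 2 with array weights and at day 35 with the subunit covariate, in fits that called 2298 and 3228 of 12516 probe sets. On array B 1460070_at read 212.6 to 241.6 with PBS and 196.8 to 268.4 in treated samples, overlapped PBS on every day and differed from it by -0.11 to 0.09 (SE 0.10). On array A 1422758_at, too dim to test, read 268.5 to 311.7 with PBS and 205.7 to 314.4 in treated samples, of which 12 of 15 lay below every PBS sample. The share of all probe sets with as many was not counted. In the fit without a filter its changes were -0.23, -0.17, -0.20, -0.18 and -0.16 (log2, SE 0.15), with a smallest adjusted p of 0.629 at day 27.

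The size of change that these data leave possible differs between the members. Without Gcnt1, the 95% intervals of the 7 other tested probe sets reached no lower than -0.38, -0.33, -0.36, -0.39 and -0.46 (log2) at days 1, 2, 3, 27 and 35, and no higher than 0.47. The Glycam1 changes at days 2, 3, 27 and 35 lay beyond those bounds. The bounds are for the signal of whole nodes, where leukocytes also make Fut7, and do not bound a change within venules. They leave out the untested probe sets, among them 1422758_at of Chst2, whose interval in the fit without a filter reached -0.55 at day 1. The Gcnt1 interval on array B reached -1.30 at day 2 and -1.20 at day 3, so a fall of the size of Glycam1's at day 2 was within it. For Chst4 no such bound is given, since its intensities were under the floor.

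**Figure D3:**
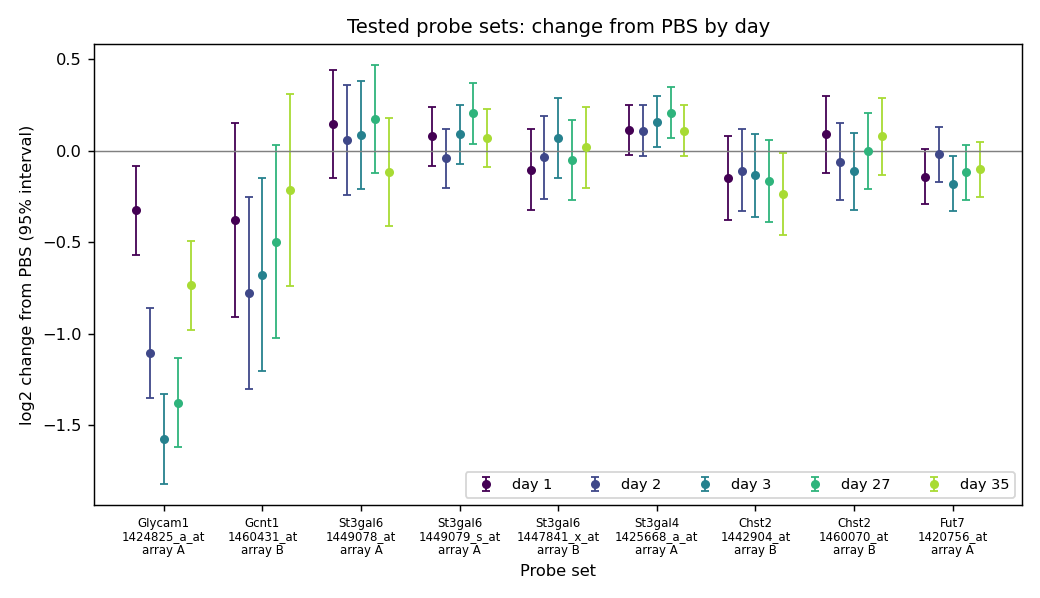
Fitted log2 change from PBS with its 95% interval (y axis) for the 9 tested probe sets (x axis) at days 1, 2, 3, 27 and 35 of soluble receptor. Glycam1 lies at -1.58 at day 3 and at -0.73 at day 35, Gcnt1 on array B has wide intervals down to -1.30, and the other 7 lie within -0.24 to 0.21.

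Other scaffolds and selectins were taken as a list of 10 genes, of which 5 had a tested probe set. Madcam1, the mucin-like ligand of the gut-homing integrin in mucosal nodes, fell at day 2 (-0.64, SE 0.10, adjusted p = 0.0112), day 3 (-0.78, 0.000609), day 27 (-0.63, 0.00215) and day 35 (-0.57, 0.00272). Cd300lg, a mucin-type receptor of capillary and venule endothelium read on array B, fell at day 3 (-0.67, SE 0.11, adjusted p = 0.0316), day 27 (-0.73, 0.0138) and day 35 (-1.09, 0.000185). Its day 2 samples read 364 to 409.4 and overlapped PBS at 363.7 to 458.1, and its day 35 samples read 181.3 to 208.3. It was also lower late than early (-0.58, SE 0.074, adjusted p = 0.000474), in a contrast that called 9.29% of the genes. The other 3, Selplg, Spn and Podxl, did not pass on any day, with changes at day 3 of 0.06, 0.08 and 0.11. So 1, 2, 2 and 2 of 5 passed as lower and 0 as higher at days 2, 3, 27 and 35, where 0.0726%, 0.299%, 1.81% and 5.26% of all 12395 genes tested were called. The list's medians were 0.01, 0.06, -0.05 and 0.01, beside 0.02, 0.02, 0.03 and 0.02 over all genes. The list was chosen with earlier results of these data known, so these counts are no test of it.

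Few of the enzymes that start, extend or cap O-glycans passed the test. Of 20 tested core and extension enzymes, B4galt5 alone passed in a comparison with PBS, at days 27 and 35, when 1.81% and 5.26% of all genes were called. This galactosyltransferase fell at day 27 (-0.65, SE 0.11, adjusted p = 0.0193) and day 35 (-0.64, 0.00413) on array B, from 268.2 ± 8.9 (SD, n = 3) with PBS to 171.2 ± 19.5 and 172.9 ± 17.1. Its other probe set, on array A and too dim to test, gave 0.16 and 0.03 on those days, so the 2 disagree. Galnt1, which starts O-glycans, did not pass, with values of 0.21, 0.21 and 0.19 at days 3, 27 and 35. Of 17 other sialyl-, fucosyl- and sulfotransferases and of 20 genes that supply activated sugars and sulfate, 0 passed on any day, beside the same shares of all genes and 0.00807%, 0.0726% and 0.299% at days 1, 2 and 3. St6gal1, which adds sialic acid in another linkage, had the value 0.47 (SE 0.17, unadjusted p = 0.0112) at day 35. The medians of these 3 lists at day 3 were 0.00, 0.02 and 0.06, beside 0.02 over all genes.

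Among 8 tested genes of a list of high endothelial venule genes, 0, 2, 3, 3 and 3 passed as lower on days 1, 2, 3, 27 and 35, and 0 as higher, beside 0.00807%, 0.0726%, 0.299%, 1.81% and 5.26% of all genes called in either direction. They were Madcam1, Cd300lg and Ubd, a ubiquitin-like protein gene. Madcam1 and Cd300lg are the same genes that passed in the list of scaffolds above. Both lists were chosen with earlier results of these data known, so their counts give no separate support. Ubd read 739.5 ± 44.7 (SD, n = 3) with PBS and 525.6, 478.4, 462.5, 535.9 and 508.4 on the 5 treated days, with changes of -0.50 (SE 0.11, adjusted p = 0.354), -0.63 (0.0329), -0.68 (0.00809), -0.46 (0.0315) and -0.55 (0.00647). Ackr1, the chemokine-binding receptor of venules, had values between -0.07 and 0.07. Il33, a nuclear cytokine of venules and stroma, had the value 0.49 at day 3 (SE 0.13, adjusted p = 0.111), and Apoe, made by venules and macrophages, 0.19 (SE 0.084, adjusted p = 0.437). Apoe was lower late than early (-0.20, SE 0.054, adjusted p = 0.0193). The list's median was 0.01 at day 3 and -0.06 at day 35. The day 35 calls of Madcam1 and Ubd ended with the subunit covariate (adjusted p = 0.316 and 0.37), as did that of Ubd at day 27 (0.171).

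Several calls of these non-member genes ended with fewer samples or without the brightness filter, while the direction of each change was kept. Over all alternatives the changes ran from -0.75 to -0.55 for Madcam1 at day 2, from -0.68 to -0.60, -0.77 to -0.62 and -0.52 to -0.36 for Ubd at days 2, 3 and 27, from -0.76 to -0.54 and -0.82 to -0.65 for Cd300lg at days 3 and 27, and from -0.75 to -0.60 for B4galt5 at day 27. The Madcam1 call at day 2 ended without day 0 replicate 1 or 2, without any 1 of the day 2 samples (adjusted p from 0.0542 to 0.101) and without the filter (0.0535). The Ubd call at day 2 ended without any 1 of its 6 samples (0.0698 to 0.207) or the filter (0.158). At day 3 it ended without day 0 replicate 3 (0.0567) or day 3 replicate 1 (0.0521), and at day 27 without day 0 replicate 2 or 3, any 1 of the day 27 samples (0.0541 to 0.122) or the filter (0.0839). The Cd300lg call at day 3 ended without day 0 replicate 1 or 2 or day 3 replicate 2 or 3 (0.071 to 0.193), without the filter (0.116) and in a fit of only those groups (0.128). At day 27 it ended without day 0 replicate 1 or 2 or day 27 replicate 3 (0.0609 to 0.102). The B4galt5 call at day 27 ended without any 1 of the PBS samples or day 27 replicate 2 or 3 (0.0585 to 0.117) and without the filter (0.0694). Glycam1 kept its calls at days 2, 3, 27 and 35 without any 1 of the samples compared.

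**Figure D4:**
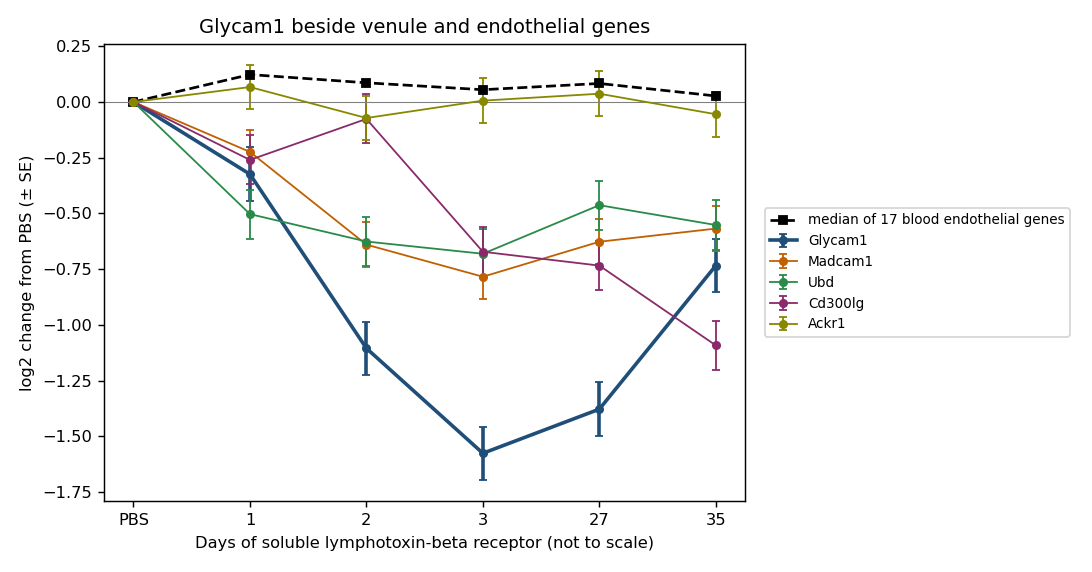
Log2 change from PBS with its SE (y axis) by days of soluble receptor (x axis, not to scale) for Glycam1, 4 other venule genes and, without error, the median of 17 blood endothelial genes. Glycam1 is lowest at days 3 and 27, Cd300lg at day 35, and Ackr1 and the endothelial median stay between -0.07 and 0.12.

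General endothelial genes gave a measure of the vessels as a whole. Of 17 tested blood endothelial markers, among them Pecam1, Cdh5 and Kdr, 0 passed in any comparison with PBS, and their median changes were 0.12, 0.09, 0.06, 0.08 and 0.03 at days 1, 2, 3, 27 and 35. Tie1 was lower late than early (-0.34, SE 0.053, adjusted p = 0.00026). The 17 listed markers read on array A, of which 15 were bright enough to test there, had a summed intensity of 10700 to 11340 with PBS and 10980 to 12810 in treated samples. The 5 lymphatic markers summed to 3284 to 3650 with PBS and 3115 to 4044 in treated samples, with 0 of 5 passing. All listed markers of both kinds were above the floor on at least 1 array.

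Relative to the endothelial markers Glycam1 was lower in every treated sample. Its log2 intensity minus the mean log2 intensity of 15 blood endothelial genes, computed within each array, was 3.16, 3.47 and 3.28 in the PBS samples. It was 2.84 to 2.91 at day 1, 1.93 to 2.17 at day 2, 1.43 to 1.81 at day 3, 1.69 to 1.98 at day 27 and 2.22 to 2.73 at day 35. The 15 treated samples averaged 2.19 ± 0.49 (SD) and the 3 PBS samples 3.30 ± 0.15, a difference of -1.12. An exact two-sided permutation test over samples gave p = 0.00123, the smallest that 816 arrangements allow. Glycam1 itself was known to lie below PBS in all 15 treated samples, so this p repeats that fall and adds no separate support. By day the difference was -0.44, -1.24, -1.65, -1.49 and -0.78, while the endothelial mean itself differed from PBS by 0.11, 0.14, 0.08, 0.11 and 0.04. A difference within an array shows that Glycam1 and the list changed unequally and says nothing of either alone.

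**Figure D5:**
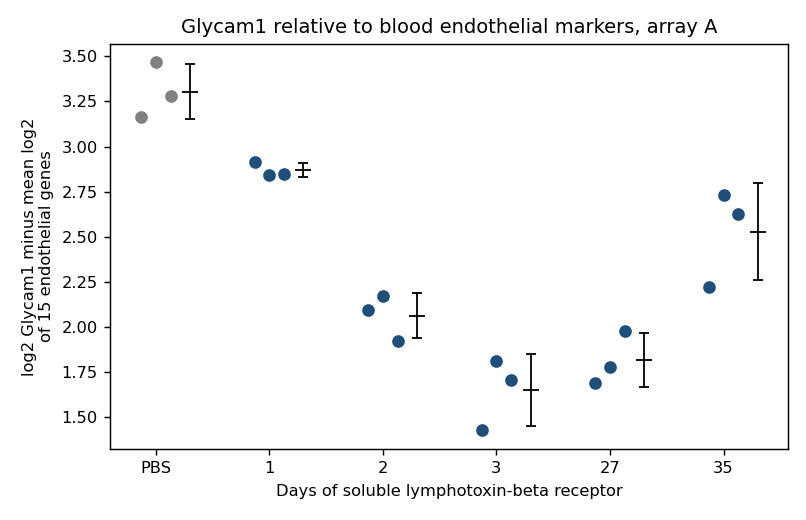
Log2 Glycam1 intensity minus the mean log2 intensity of 15 blood endothelial genes (y axis, not from 0) in each sample of array A by days of soluble receptor (x axis, not to scale), with mean and SD. PBS samples lie at 3.16 to 3.47, all 15 treated samples lie at or below 2.91, and day 3 is lowest at 1.43 to 1.81.

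Markers of other cells that express a member were read beside it. Lymphocytes, which define the tissue, were present on all arrays: the 8 T cell markers summed to 9277 to 9476 with PBS and 8915 to 9908 in treated samples. Of these 8, all tested, 1 passed as higher at day 35 and 0 at the other days against PBS. In the late against early contrast 1 passed as lower. Those contrasts called 5.26% and 9.29% of all genes. B cell markers summed to 10610 to 10810 with PBS, 10210 to 11830 at day 1, 10240 to 10440 at day 2, 9115 to 10000 at day 3, 8997 to 10130 at day 27 and 9911 to 10450 at day 35. Of 5 tested B cell markers, Cd79a fell at days 27 and 35 (-0.39 and -0.35, SE 0.072, adjusted p = 0.00594 for each) and no other passed against PBS. The values of Cd22 on those days were 0.16 and 0.25 (adjusted p = 0.297 and 0.0661), and it was higher late than early (0.18, SE 0.052, adjusted p = 0.0229). Those of Pax5 were 0.04 and 0.05. Glycam1 is also a milk gene, and the 9 mammary markers, of which 2 were bright enough to test, summed to 1590 to 1877 with PBS and 1531 to 2083 in treated samples. Of these the milk protein genes Csn2 (97.16 to 184.3), Wap (111.2 to 142.3), Csn1s2a (94.64 to 132) and Csn1s2b (79.55 to 137.7) were near the floor of 122.6. Csn3 (133.4 to 197.2), Csn1s1 (165.9 to 231.7) and Lalba (237.2 to 342) lay above it on all arrays, and Lalba, tested, did not pass, with values from 0.00 to 0.24 against PBS. Neutrophil markers, relevant to Fut7 and Gcnt1, summed to 2352 to 2524 with PBS and 2134 to 2776 in treated samples. Markers of mast cells and progenitors, relevant to Cd34, summed to 1578 to 1768 with PBS and 1623 to 1919 in treated samples, and those of germinal centre B cells to 1259 to 1479 with PBS and 1162 to 1624 in treated samples. Fat cell markers summed to 11480 to 12880 with PBS and 8225 to 10660 at day 35, where Lipe passed as lower (-0.60, SE 0.12, adjusted p = 0.00676). The values of the other 3 at day 35 were -0.47 for Adipoq, -0.28 for Fabp4 and 0.21 for Lep (adjusted p = 0.0551, 0.0585 and 0.17). The part of B cells, T cells, mammary tissue and fat in the member results was not tested.

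The genes with changes most like those of Glycam1 were ranked by the root mean square difference over the 5 log2 changes from PBS, as a description with no test. All comparisons share the PBS samples, and a gene with no change on any day would score 1.12. Among 11141 other probe sets of array A with 1 symbol, Cxcl13, a chemokine of follicular stroma, came first (0.38, and 0.52 for a second probe set), from 1519 ± 55.6 (SD, n = 3) with PBS to 820.5 ± 31.7 at day 3, 677.4 ± 52.5 at day 27 and 1070 ± 180 at day 35. An immunoglobulin kappa variable segment (0.41), with a wide PBS spread of 1089 ± 529, and Hbb-b2 (0.48), a globin gene of red cells, came next. Mfge8 (0.49), which marks follicular dendritic cells and helps phagocytes take up dying cells, went from 3449 ± 149 with PBS to 1380 ± 66.6 at day 3 and back to 3354 ± 283 at day 35. Madcam1 (0.54) was next. On array B Il22ra2, a soluble receptor for interleukin-22, was nearest of 8616 (0.35), followed by Dsc3 and Timd4 (0.57 each).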

How the data were processed

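RNA of mouse mesenteric lymph node was measured on arrays A and B, 18 of each, in 6 groups of 3. The authors deposited 1 linear intensity per probe set and array. Software, background correction and any scaling were not given in the sources used here, and the median of an array was 272.8 to 299.5 for type A and 149.8 to 165.2 for type B, and values were not rescaled. Intensities were raised to the 20th percentile of their array type (122.6 and 76.57) and taken to log2. Probe sets above the median of all values of their array type (286.7 and 157.9) on at least 3 of 18 arrays were tested, 12231 and 12516. Each array type was fitted separately in limma 3.58.1 (R 4.3.3; lmFit, eBayes with a mean-variance trend, all 6 groups, no covariate), and the script was tested on simulated data. P-values are two-sided and adjusted by Benjamini-Hochberg per array type and contrast. The number of arrays limits the precision. Genes were named through the platform annotation, where it gives a probe set 1 symbol. All member probe sets are reported. Of each gene list, up to 5 called genes a contrast and the 3 brightest not called were eligible for naming, a gene standing by its brightest tested probe set. Cell type markers are named as examples or where they passed, except T cell markers, which are only counted. A gene most like Glycam1 is among the 6 nearest on array A or 3 on array B. Members, lists and tests were chosen with earlier results of these data known. Alternatives covered scaling, floor, filter, variance model, array weights, a subunit covariate, the replicate number as a block, the groups fitted and the omission of single arrays. A fit on log2(intensity + 16) for untested members, and the alternatives for list genes, were added after seeing the data.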

Additional observations from a re-analysis of the deposited data

Results flagged for a closer look

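Glycam1 differed between 2 treated days in a direct test of the difference. Its change from PBS was -0.32 (log2) at day 1 and -1.58 at day 3, and the contrast of day 3 with day 1 was -1.25 (SE 0.12, limma, adjusted p = 3.01e-05). All 3 day 3 samples (1640 to 2244) were below all 3 day 1 samples (4354 to 4820).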

How the results depend on the processing

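The Glycam1 calls against PBS at days 2, 3 and 27 and the day 3 against day 1 call were kept under each of 17 alternatives, with changes of -1.21 to -1.01, -1.68 to -1.46, -1.52 to -1.28 and -1.36 to -1.13 (log2). With the small subunit covariate the day 35 change was -0.938 and was not called, and 2 other member probe sets were called there. Day 35 against day 27 was called for Glycam1 with quantile scaling (0.657, 1 member called) and array weights (0.681, 1 member), and over omitted arrays its value ran from 0.567 to 0.756 with 0 to 1 members called. Late against early, not called for Glycam1, changed sign with quantile scaling (0.023) and ran from -0.101 to 0.002 over omitted arrays, with 0 to 1 members called. Gcnt1 on array B, not called, changed sign with the covariate at day 35 against day 27 (-0.037) and late against early (-0.133), and ran from -0.141 to 0.49 over omitted arrays in the former. Array weights called 3 member probe sets at day 2, 3 at day 27 and 2 for any group; their estimation did not reach its convergence tolerance. The cause was not tested. Counts over all probe sets moved more: at day 35 array A gave 900 calls, 1 with the covariate and 3046 with array weights, and array B 449, 3228 with the covariate and as few as 125 without 1 array. Over all alternatives, omitted arrays included, at days 1, 2, 3 and 27 they ran on array A from 0 to 77 (2 as reported), 4 to 536 (14), 16 to 377 (68) and 113 to 2485 (389), and on array B from 1 to 152 (1), 1 to 2298 (3), 2 to 68 (10) and 0 to 345 (41), the 0 being without day 0 replicate 2. For day 3 against day 1, late against early and any group they ran on array A from 7 to 311 (28), 249 to 4114 (1880) and 48 to 4721 (943), and on array B from 0 to 0, 102 to 1215 (208) and 59 to 3031 (119). Day 35 against day 27 gave up to 464 calls on array A and 7 on array B, against 0 and 0. Same-numbered samples deviated together in 18 of 45 pairs on array A (correlation over 0.1) and 34 of 45 on array B, with medians of 0.019 and 0.37, and 8 and 12 of 18 samples correlated best with their own number. Not every pair passed 0.1 and the labels give the number no meaning, so the numbers were not taken to pair samples, though on array B the values hint at shared sets. With the replicate block Glycam1 changed by -1.58 (adjusted p = 1.33e-06) at day 3 and kept its calls, no other member probe set was called, and array B gave 68, 220 and 1327 calls at days 3, 27 and 35 in place of 10, 41 and 449. The ratio of Glycam1 to the endothelial markers was -1.19 to -0.96 under 7 alternatives, with exact p from 0.00123 to 0.00735; without a PBS sample that p is the smallest the arrangements allow. Intensity limits Cd34 and Chst4, which had no tested probe set, and no alternative tests Chst4 above the floor.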
